A study of Mus musculus with 12 samples.

Results

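The mitochondrial ribosomal protein genes are the nuclear genes for the proteins of the mitoribosome, here the protein-coding genes whose symbol begins with Mrpl or Mrps and a number. The count table held 78 such genes among 47643, and 5 pseudogenes with a matching symbol were left out. Of the 78 genes, 72 had enough reads to be tested and 6 did not. The mitoribosome sits in the mitochondrial matrix and translates the few proteins encoded by mitochondrial DNA, all of them subunits of the respiratory chain and ATP synthase. Its RNAs come from mitochondrial DNA, whereas every one of its proteins is made in the cytosol and imported. Skeletal muscle, which renews its mitochondria after repeated contraction, depends on both sources.

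The samples were gastrocnemius muscles of female C57BL/6J mice at 11 weeks of age, of which 3 carried the c-myc over-expression label and 3 the control label. Both lower legs of each animal were sequenced, the right leg after acute contraction and the left leg without it, which gave 4 groups of 3 libraries. These are contracted legs with Myc over-expression, contracted control legs, uncontracted legs with Myc over-expression and uncontracted control legs. Contraction and body side cannot be told apart. The means by which Myc was over-expressed, and the time between contraction and collection, are not given in the sources used here. The libraries were made from polyadenylated 3' ends, so that a transcript gives about 1 tag whatever its length.

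The 12 libraries held between 1371732 and 1643216 reads assigned to genes, and the mitochondrial ribosomal protein genes took between 4286 and 5463 of them. Levels below are in CPM, the usual unit of reads relative to library size, with library sizes scaled by the trimmed mean of M values (TMM), and a gene without a read in a library could have had up to between 1.80 and 2.32 CPM there, a limit that covers counting error only. Reads of the Myc gene itself did not follow the labels in the contracted legs. The contracted Myc libraries numbered 1, 2 and 3 held 32, 0 and 2 Myc reads, against 1, 10 and 59 in the contracted control libraries. The uncontracted Myc libraries held 11, 9 and 9, against 0, 1 and 0 in the uncontracted control libraries. As labelled, the Myc gene differed by 5.72 ± 1.59 on the log2 scale between contracted and uncontracted control legs (SE, edgeR adjusted p = 0.0594). Whether the Myc reads of contracted control legs come from contraction or from a wrong label was not tested. Groups below keep their labels, and the contracted libraries numbered 2 and 3 in both genotypes are those whose labels are in doubt. Leaving these 4 out keeps 1 contracted library per genotype, which is then assumed to vary like the other groups. A call lost in that setting does not by itself show a smaller effect. Some effect sizes were smaller there too, and they are given below. All 7 myofibre markers were present in each group, at a summed 79500 to 101179 CPM per library. Of the 2 liver markers, Apoa1 had no read in any library, and Alb reached at most 0.658 CPM in a library.

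As a family these genes were moderately expressed, and they took between 0.282% and 0.361% of the reads of a library. Levels spanned a wide range. The highest was Mrpl30, a large-subunit protein with a bacterial counterpart, at a mean of 167 CPM over the 12 libraries, with single libraries between 131 and 196 CPM. Then came Mrpl42 at 146 CPM and Mrps23 at 145 CPM, both found only in mitochondrial ribosomes. They were followed by Mrpl12 at 141 CPM, Mrps12 at 140 CPM and Mrpl15 at 119 CPM. Mrpl12 forms the flexible stalk that recruits translation factors, Mrps12 lies at the decoding centre, and Mrpl15 has a bacterial counterpart in the large subunit. The library ranges of these 6 genes overlapped, so their order is not firm. Together the 6 genes gave 27.4% of all reads of the family. Another 3 genes averaged over 100 CPM, 52 lay between 10 and 100 CPM and 17 lay below 10 CPM.

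At the low end of the tested genes stood Mrpl27 at 6.94 CPM, Mrps21 at 6.19 CPM, Mrps11 at 6.06 CPM, Mrpl22 at 5.91 CPM, Mrps10 at 5.28 CPM and Mrps31 at 4.64 CPM. The 6 untested genes were listed with 23 reads in all 12 libraries for Mrpl9, 12 each for Mrps36 and Mrps28, 8 for Mrpl23, 5 for Mrps18b and none for Mrpl53. Mrps36 has since been assigned to the oxoglutarate dehydrogenase complex rather than to the ribosome. Mrpl53 shares 88.0% of its annotated exon bases with Gm42688, a protein-coding gene on the same strand that also had no read, so a read there cannot be assigned to either of them alone. Of the 78 genes, 33 share some exon bases with another gene, and 8 of these with a gene on the same strand. Mrps25 shares 69.8% of its exon bases with Nr2c2 on the opposite strand and Mrps34 shares 63.4% with Mapk8ip3. The strand setting of the counting is not given in the sources used here, so the levels of these 2 genes are uncertain. Those of the other genes with shared exon bases may be affected too. The genes lie on 17 chromosomes.

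**Figure D1:**
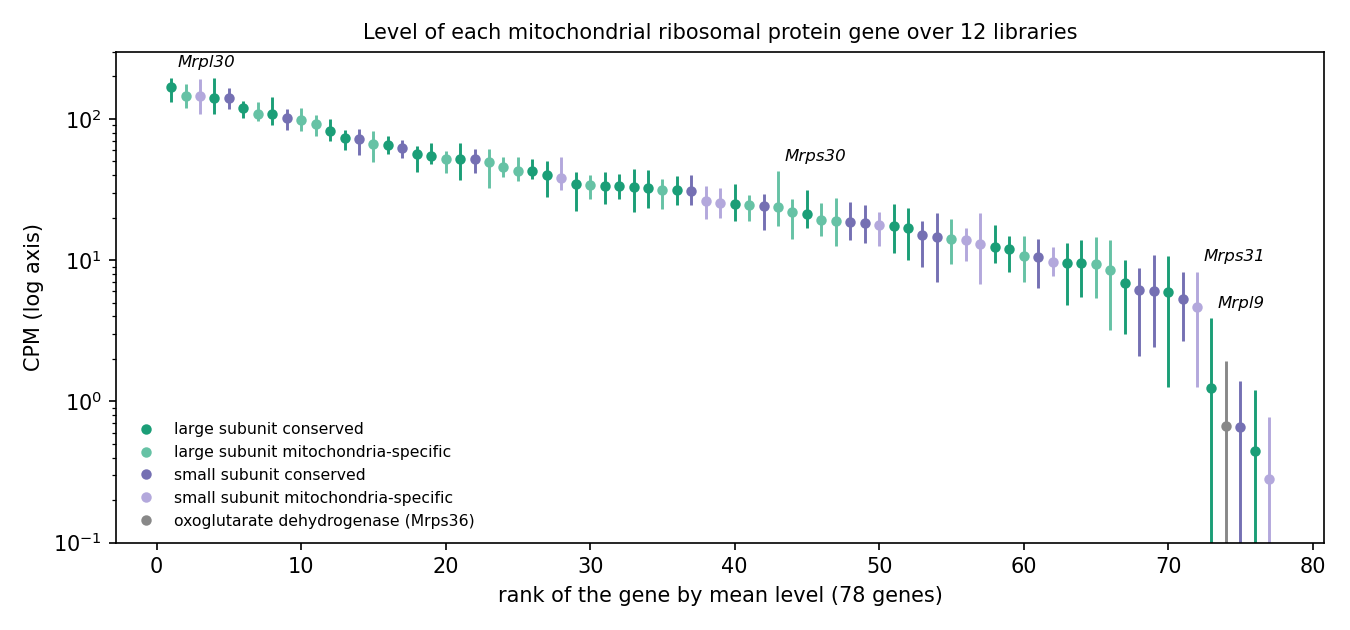
Mean level (points) and range over the 12 libraries (vertical lines) of the mitochondrial ribosomal protein genes, in CPM on a log axis, ordered by mean level and coloured by subunit and origin. Mrpl53, without a read, is not drawn, and lines that reach the lower edge extend to 0. Mrpl30 leads at 167 CPM, and the tested genes end with Mrps31 at 4.64 CPM.

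Large-subunit genes had higher median levels than small-subunit genes, though the ranges of single genes overlapped widely. The median level was 33.3 CPM for the 30 large-subunit genes with bacterial counterparts and 31.6 CPM for the 21 found only in mitochondria. It was 18.5 CPM for the 16 small-subunit genes with bacterial counterparts and 15.7 CPM for the 10 found only in mitochondria. Mrps18a and Mrps30 were counted with the large subunit, where their proteins sit despite their symbols. The summed large-subunit level was between 2.44 and 2.68 times the summed small-subunit level in every library. The large-subunit sum also runs over more genes, 30 and 21 against 16 and 10, so this is not a ratio of levels per gene. That ratio averaged 2.63 ± 0.0489 in contracted Myc legs and 2.57 ± 0.114 in contracted control legs (SD, n = 3 each). In uncontracted legs it averaged 2.62 ± 0.0655 with Myc and 2.53 ± 0.0250 in controls (SD, n = 3 each). The uncontracted libraries lay between 2.55 and 2.68 with Myc, just above the 2.5 to 2.55 of the controls, and the contracted groups overlapped.

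Replicates agreed closely. Over the 72 tested genes the variance within groups was a median 1.13 times the mean count, where counting error alone would give 1, against 1.35 for the 6186 tested genes in the same range of mean reads. The biological coefficient of variation was a median 11.1% in the family and 13.1% in those genes. The most variable members were Mrpl30 with a variance 5.44 times its mean, Mrpl34 with 4.79, Mrps23 with 3.97 and Mrpl12 with 3.62. The typical standard error of a log2 difference between 2 groups was 0.205 for a single gene. The family as a whole varied most in contracted Myc legs. There the SD of its summed CPM was 321, against 29.7 in contracted control, 59.8 in uncontracted Myc and 173 in uncontracted control legs.

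The share of reads taken by the family was highest in uncontracted Myc legs. It averaged 0.317 ± 0.0315% in contracted Myc legs and 0.303 ± 0.0134% in contracted control legs (SD, n = 3 each). In uncontracted legs it averaged 0.337 ± 0.0219% with Myc and 0.296 ± 0.0129% in controls (SD, n = 3 each). As a sum of CPM the family stood at 3103 ± 321 in contracted Myc legs, 3023 ± 29.7 in contracted control legs, 3370 ± 59.8 in uncontracted Myc legs and 3028 ± 173 in uncontracted control legs (SD, n = 3 each). The uncontracted Myc libraries lay between 3310 and 3430 CPM, all above the uncontracted control libraries at 2839 to 3179 CPM.

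A score that gives every gene the same weight is the mean log2 CPM of the 72 tested genes minus its mean over all libraries. It was 0.107, 0.113 and 0.0750 in the uncontracted Myc libraries, against -0.0836, -0.0220 and -0.0860 in the uncontracted control libraries, and these groups did not overlap. In contracted legs it was 0.151, -0.0480 and -0.0958 with Myc, against -0.0993, 0.0114 and -0.0225 in controls, which overlapped. The highest score of all 12 libraries was that of the contracted Myc library numbered 1, which held 32 Myc reads. The contracted control libraries numbered 2 and 3, with 10 and 59 Myc reads, scored 0.0114 and -0.0225. The contracted libraries with 0, 2 and 1 Myc reads scored lower, at -0.0480, -0.0958 and -0.0993. How the score goes with Myc reads was not tested.

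**Figure D2:**
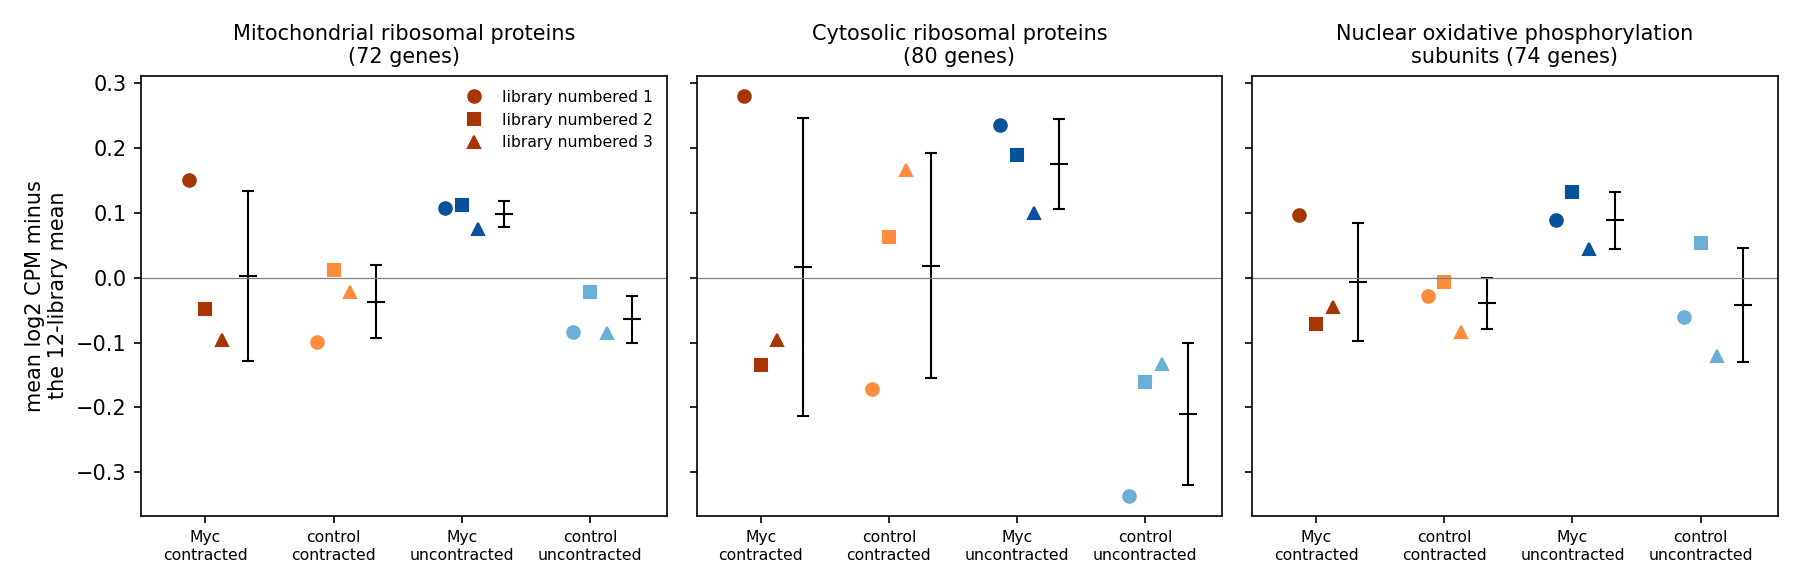
Mean log2 CPM minus its 12-library mean (vertical axis) for 3 gene families in each library, by group; marker shapes give the library number, and the black bar with its whiskers gives the mean and SD of 3 libraries. The mitochondrial ribosomal protein score lies between 0.0750 and 0.113 in uncontracted Myc legs, above all uncontracted control legs, and the cytosolic ribosomal protein score spreads more widely.

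The first comparison asked what Myc over-expression went with in resting muscle. In uncontracted legs 56 of the 72 tested genes had a higher level with Myc than in controls, which is 77.8%, against 49.3% of all 6676 tested genes. The median log2 difference, Myc over control, was 0.16 in the family and -0.01 over all tested genes. The shift was small for any one gene, and no gene passed the test. With edgeR's quasi-likelihood test and Benjamini-Hochberg adjustment over all 6676 genes, 0 of 72 were called, and the background was also 0% of all tested genes. DESeq2 called 0 of 72 as well. At an unadjusted p under 0.05, 7 genes were higher and none lower, which is 9.72% of the family, against 6.31% of all tested genes. In 16 genes each uncontracted Myc library lay above each uncontracted control library, where 7.26% of all tested genes did so. In 1 gene, Mrpl13, the groups were apart the other way, where 5.6% of all tested genes were. The median stayed between 0.14 and 0.16 when any single uncontracted library was left out, and it was 0.15 and 0.19 with other library scalings.

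The largest of these differences was that of Mrps30, a large-subunit protein found only in mitochondrial ribosomes, encoded at chr13:118378381-118387252 on the minus strand (GRCm38). It had 33.4, 26.4 and 42.6 CPM in uncontracted Myc legs, against 18.5, 18.2 and 19.0 CPM in uncontracted control legs. In reads this was 53, 42 and 55 with Myc, against 29, 27 and 31 in controls. The control libraries were nearly equal, and each Myc library stood above them. The log2 difference was 0.86 ± 0.21 (SE), with an unadjusted p of 0.00054 and an adjusted p of 0.315 (edgeR). In contracted legs Mrps30 had 22.1, 22.4 and 17.4 CPM with Myc, against 23.1, 20.4 and 23.3 CPM in controls, which overlapped. Mrps30 shares 9.35% of its exon bases with B430218F22Rik on the opposite strand, a gene without a read here.

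Mrpl12, the stalk protein, is also known to bind the mitochondrial RNA polymerase, and its gene lies at chr11:120484613-120489065 on the plus strand. It had 164, 176 and 151 CPM in uncontracted Myc legs, against 120, 118 and 109 CPM in uncontracted control legs. These groups did not overlap either, with 261, 280 and 195 reads against 189, 175 and 178. The log2 difference was 0.50 ± 0.15 (SE), with an adjusted p of 0.541 (edgeR). In contracted legs Mrpl12 had 194, 142 and 130 CPM with Myc, against 119, 128 and 139 CPM in controls. The highest value of all 12 libraries was that of the contracted Myc library numbered 1, and the others overlapped. The contracted difference was 0.27 ± 0.15 (SE) with an adjusted p of 0.999, and leaving out the contracted libraries numbered 2 and 3 gave 0.72.

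The other 5 genes with an unadjusted p under 0.05 in uncontracted legs were Mrpl1, Mrpl19, Mrps27, Mrpl52 and Mrpl15. Of these Mrpl19, Mrps27 and Mrpl52 were singled out after their values were seen, as were Mrpl57, Mrps16, Mrpl14 and Mrpl34 elsewhere in the text. Mrpl1, a protein of the stalk near the exit site for transfer RNA, had 13.2, 9.42 and 13.9 CPM with Myc, against 8.91, 8.07 and 5.51 CPM in controls. Mrpl19, which has a bacterial counterpart, had 44.1, 42.7 and 40.2 CPM with Myc, against 38.8, 29.6 and 22 CPM in controls. Mrps27, a small-subunit protein with pentatricopeptide repeats, had 44.7, 54.0 and 41.8 CPM with Myc, against 34.4, 31.6 and 36.7 CPM in controls. In each of these genes the lowest Myc library stood above the highest control library. Mrpl52 had 54.2, 55.3 and 51.1 CPM with Myc, against 45.2, 48.4 and 32.4 CPM in controls. Mrpl15 had 129, 134 and 132 CPM with Myc, against 103, 105 and 111 CPM in controls. Their log2 differences ran from 0.30 for Mrpl15 to 0.69 for Mrpl1, with adjusted p between 0.633 and 0.766 (edgeR). Mrpl13, a large-subunit protein with a bacterial counterpart, went the other way with 20.2, 19.5 and 19.3 CPM in Myc legs, against 22.9, 22.9 and 31.2 CPM in control legs, and a log2 difference of -0.39 ± 0.21 (SE).

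Some summed marker levels of the tissue also lay apart between these groups, though edgeR called no single marker of the lists below. The summed myofibre markers, all 7 of 7 present, lay between 86485 and 87566 CPM in uncontracted Myc legs, against 94880 to 101179 CPM in uncontracted control legs. The 4 fibroblast markers summed to between 552 and 665 CPM with Myc, against 834 to 1347 CPM in controls, and the 4 macrophage markers to between 64.9 and 72 CPM, against 88.8 to 122 CPM. None of the fibroblast and macrophage markers was at 0 in either group. Of the 7 myofibre markers 2 were higher with Myc, among them Mb by 0.28 on the log2 scale. Of the 3 tested fibroblast and the 3 tested macrophage markers, 0 were higher. Both neutrophil markers were at 0 in the uncontracted Myc libraries and summed to at most 3.06 CPM in the control ones. Their part in the difference was not tested, and fewer cells of a type cannot be told apart from less RNA per cell in whole muscle.

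The second comparison asked what followed acute contraction. In control animals the family's median log2 change, contracted over uncontracted, was 0.0087, beside 0.0073 for all tested genes. In control legs 39 of 72 genes were higher after contraction, which is 54.2%, against 50.9% of all tested genes. No gene passed edgeR's quasi-likelihood test with Benjamini-Hochberg adjustment, or DESeq2, where 2.8% of all tested genes were called by edgeR. At an unadjusted p under 0.05 there were 2 genes, 2.78% of the family, against 12.9% of all tested genes. In 6 genes the contracted control libraries lay above all uncontracted ones, against 9.71% of all tested genes. They lay below in 1, against 7.12%.

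The gene with the lowest p in control legs was Mrps26, a small-subunit protein found only in mitochondria. It had 14.0, 12.5 and 13.0 CPM in contracted control legs, against 21, 18.2 and 21.4 CPM in uncontracted control legs, which did not overlap. The log2 change was -0.62 ± 0.23 (SE), with an adjusted p of 0.222 (edgeR). In Myc legs Mrps26 had 22.1, 18.2 and 16.2 CPM after contraction, against 15.8, 22 and 17.8 CPM without it, which overlapped. Mrps5, a small-subunit protein with a bacterial counterpart, had 21.7, 19.1 and 23.3 CPM in contracted control legs, against 15.3, 13.5 and 15.3 CPM in uncontracted control legs. These groups did not overlap, and the log2 change was 0.54 ± 0.24 (SE), with an adjusted p of 0.349 (edgeR).

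In animals labelled Myc the family was slightly lower in the contracted leg. The median log2 change was -0.08, against -0.01 for all tested genes, and 22 of 72 genes were higher after contraction, which is 30.6%, against 49.2%. No gene passed edgeR's quasi-likelihood test with Benjamini-Hochberg adjustment, or DESeq2, where edgeR called 3.89% of all tested genes. At an unadjusted p under 0.05, 8 genes were lower and none higher, which is 11.1% of the family, against 16% of all tested genes in either direction. In 10 genes the contracted libraries lay below all uncontracted ones, where 9.2% of all tested genes did, and in 1 gene, Mrpl48, above, where 10.3% did. The sign of this median rests on the libraries whose labels are in doubt. It was 0.07, with 41 of 72 genes higher, once the contracted libraries numbered 2 and 3 were left out, and without the contracted Myc library numbered 1 it was -0.17 with 16 of 72 higher.

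Mrps30 had the lowest adjusted p of the family in this comparison, 0.0600 (edgeR), with a log2 change of -0.71 ± 0.21 (SE). The 22.1, 22.4 and 17.4 CPM of the contracted Myc legs lay below the 33.4, 26.4 and 42.6 CPM of the uncontracted Myc legs. Without the uncontracted Myc library numbered 2 the change was -0.87 ± 0.22 (SE) and passed the test, with an adjusted p of 0.0372. Mrpl57, a large-subunit protein found only in mitochondria, had 40.0, 36.4 and 36.7 CPM in contracted Myc legs, against 51.7, 50.9 and 53.4 CPM in uncontracted Myc legs. Its replicates were tight and the groups did not overlap, but the log2 change of -0.46 ± 0.16 (SE) had an adjusted p of 0.119 (edgeR). Mrpl10, the base of the stalk that carries Mrpl12, had 8.97, 7.28 and 4.81 CPM in contracted Myc legs, against 13.2, 9.42 and 13.2 CPM in uncontracted Myc legs. Its log2 change was -0.77 ± 0.34 (SE) and rested on 8 to 21 reads per library, with an adjusted p of 0.258 (edgeR).

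The remaining 5 genes at an unadjusted p under 0.05 were Mrpl19, Mrps23, Mrps27, Mrps16 and Mrpl42, with log2 changes between -0.53 and -0.33 and adjusted p between 0.179 and 0.262 (edgeR). Mrpl19 passed the test only without the contracted Myc library numbered 1, at -0.81 ± 0.22 (SE) and an adjusted p of 0.0261. In that library it had 40.7 CPM, against 24.9 and 23.5 CPM in the other contracted Myc libraries. Mrps30, Mrpl19 and Mrps27 stood out both here and between genotypes in uncontracted legs, and both comparisons use the same 3 uncontracted Myc libraries. Mrpl19 shares 36% of its exon bases with Gcfc2, and Mrps27 shares 24.2% with 6430562O15Rik, both on the opposite strand. With the strand setting not given, the levels of Mrpl19 and Mrps27 are uncertain as well.

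Averaged over both genotypes, the median log2 change with contraction was -0.07, against -0.0033 for all tested genes. Leaving out the 4 contracted libraries numbered 2 and 3 gave -0.013, and it was -0.043 without the contracted Myc library numbered 3, -0.044 without the contracted control library numbered 1 and -0.11 without the contracted Myc library numbered 1. Of the 72 genes 25 were higher, which is 34.7%, against 49.6% of all tested genes. No gene passed edgeR's test or DESeq2, where edgeR called 7.47% of all tested genes. At an unadjusted p under 0.05 there were 2, or 2.78% of the family, against 20.2% of all tested genes. These were Mrpl48, a protein found only in mitochondria, at 0.45 ± 0.21 (SE), and Mrpl57 at -0.26 ± 0.11 (SE). The signs of other cells also moved with contraction. Summed over both neutrophil markers, contracted legs had 3.64 to 48.7 CPM with Myc and 6.58 to 65.4 CPM in controls, against 0 CPM in uncontracted Myc legs and at most 3.06 CPM in uncontracted control legs. The 4 erythrocyte markers summed to 420 to 991 CPM with Myc and 397 to 650 CPM in controls after contraction, against 348 to 407 CPM with Myc and 307 to 456 CPM in controls without it. The 3 smooth muscle markers summed to 54.1 to 84.2 CPM with Myc and 54.4 to 70.7 CPM in controls after contraction, against 85.4 to 88.2 CPM with Myc and 84.8 to 113 CPM in controls without it. Averaged over genotypes, Acta2 of that list fell by 0.55 on the log2 scale (adjusted p = 0.0117, edgeR). Of the 4 macrophage markers, 3 were tested, and Cd68 rose by 1.7 (adjusted p = 0.00941) while Csf1r fell by 0.54 (adjusted p = 0.0294) in the same comparison. The part of these cells in the family's values was not tested.

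For 69 of the 72 genes the 95% interval of the averaged change lay within 2-fold either way, and for 56 it lay within 1.5-fold either way.

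**Figure D3:**
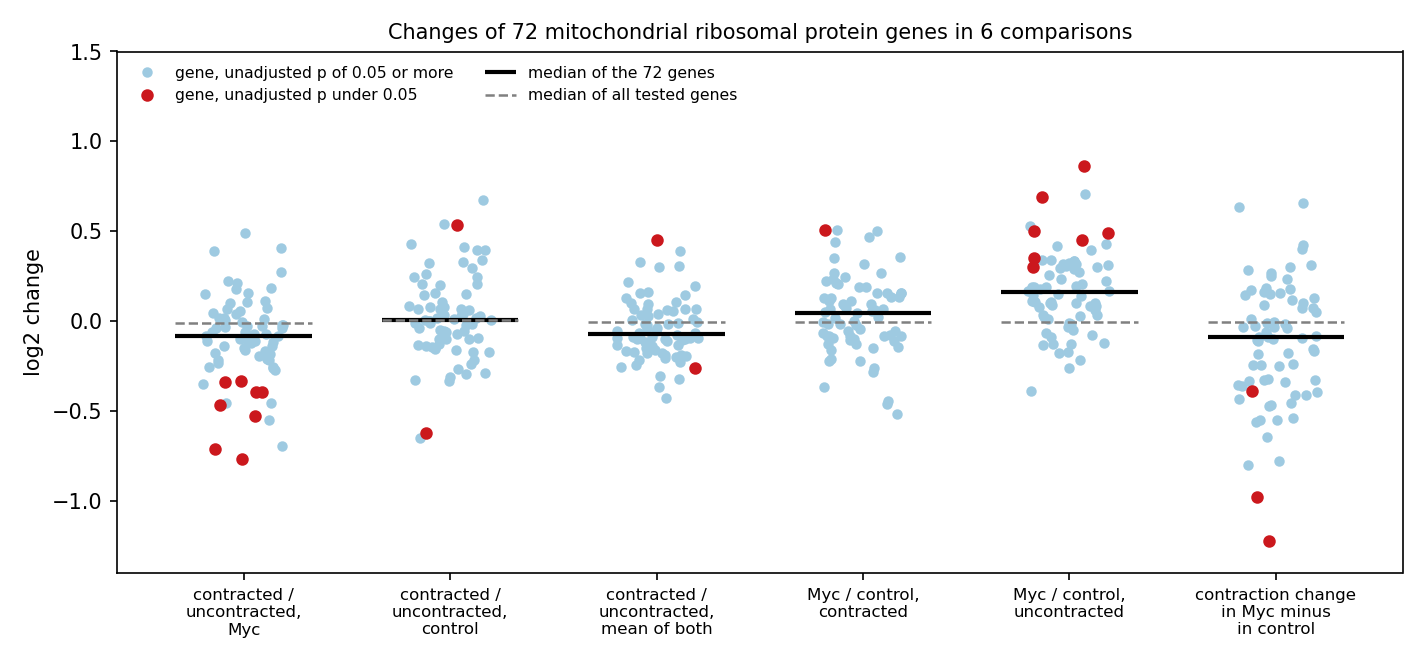
Log2 changes of the 72 tested mitochondrial ribosomal protein genes (points) in 6 comparisons, each named as numerator over denominator; red points have an unadjusted p under 0.05, and no gene was called after adjustment. Solid bars give the family's median, 0.16 for Myc over control in uncontracted legs and -0.08 for contraction in Myc animals, and dashed bars give the median of all tested genes.

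Between genotypes in contracted legs the family's median log2 difference was 0.05, against -0.0016 for all tested genes, with 40 of 72 genes higher, or 55.6%, against 49.7%. With edgeR 0 of 72 genes were called, as were 0% of all tested genes, and DESeq2 called none. At an unadjusted p under 0.05, 1 gene stood out, against 3.07% of all tested genes. That gene was Mrps26, with 22.1, 18.2 and 16.2 CPM in contracted Myc legs, against 14.0, 12.5 and 13.0 CPM in contracted control legs and a log2 difference of 0.51 ± 0.23 (SE). The Myc libraries lay above all control libraries in 4 genes, Mrpl52, Mrpl39, Mrpl14 and Mrps26, where 4.21% of all tested genes did. They lay below in 2 genes, Mrpl13 and Mrpl50, where 3.68% did. With numbers 2 and 3 of both contracted groups left out, the remaining single library of each genotype gave a median of 0.25 with 52 of 72 genes higher. Without the contracted Myc library numbered 1 alone, the median was -0.06.

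The difference between the contraction changes of the genotypes, Myc minus control, had a median log2 value of -0.09, against -0.0040 for all tested genes. No gene was called by edgeR's quasi-likelihood test with Benjamini-Hochberg adjustment, as for 0% of all tested genes, or by DESeq2. At an unadjusted p under 0.05 there were 3 genes, all negative, which is 4.17% of the family, against 4.96% of all tested genes. Mrpl50, a large-subunit protein found only in mitochondria, had -1.22 ± 0.50 (SE), Mrps30 had -0.98 ± 0.31 (SE) and Mrpl15 had -0.39 ± 0.19 (SE). The lowest adjusted p in the family was 0.855. Mrpl50 rested on 5 to 21 reads per library. For 11 of 72 genes the 95% interval lay within 1.5-fold, so this comparison was the least precise of the 6. The median had the opposite sign, 0.15, once the contracted libraries numbered 2 and 3 were left out.

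No gene of the other lists for mitochondrial translation was called. Of 5 mitoribosome proteins with other names (Dap3, Gadd45gip1, Aurkaip1, Ptcd3 and Chchd1), 10 tested of 17 mitochondrial translation factors, 17 tested of 26 mitoribosome assembly and ribosomal RNA modification factors, 14 tested of 20 mitochondrial aminoacyl-tRNA synthetases and 6 tested of 14 genes of mitochondrial transcription and DNA upkeep, none was called by edgeR in any of the 6 comparisons. The median log2 difference of Myc over control in uncontracted legs was 0.22, 0.19, 0.19, 0.32 and 0.27 over these 5 lists in that order, beside 0.16 in the family. The 5 lists had 5 of 5, 9 of 10, 13 of 17, 8 of 14 and 6 of 6 genes higher.

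The RNAs of the mitoribosome passed the test after contraction in Myc animals and in the average over genotypes, and not in control animals alone. Averaged over both genotypes, mt-Rnr1, the RNA of the small subunit, rose by 0.79 ± 0.14 on the log2 scale (SE, edgeR adjusted p = 0.000694), and mt-Rnr2, that of the large subunit, by 0.87 ± 0.17 (adjusted p = 0.00207). In Myc animals the changes were 0.95 ± 0.20 for mt-Rnr1 and 1.10 ± 0.25 for mt-Rnr2 (SE, edgeR adjusted p = 0.00548 and 0.0100). In control animals they were 0.62 ± 0.20 and 0.64 ± 0.24 (SE, adjusted p = 0.120 and 0.230). Of 14 alternative runs in control animals, mt-Rnr1 passed in 2 and mt-Rnr2 in 1. The change in Myc animals minus that in controls was 0.33 ± 0.28 for mt-Rnr1 and 0.46 ± 0.34 for mt-Rnr2 (SE). Neither of these passed (edgeR adjusted p = 0.970 for each), so a difference between the genotypes was not shown. Without the contracted Myc library numbered 2 the changes in Myc animals were 0.74 and 0.78 and did not pass, with adjusted p of 0.0643 and 0.125, and DESeq2 gave mt-Rnr2 an adjusted p of 0.0621. For mt-Rnr2 that p was also 0.0775 without the uncontracted Myc library numbered 2 and 0.0777 without the one numbered 3. In contracted legs mt-Rnr1 had 1253, 2390 and 1971 CPM with Myc and 1422, 1587 and 2464 CPM in controls. In uncontracted legs it had 1097, 906 and 897 CPM with Myc and 1262, 1081 and 1213 CPM in controls. All contracted libraries but the Myc one numbered 1 lay above all uncontracted libraries. For mt-Rnr2 the contracted legs had 2724, 6351 and 4652 CPM with Myc and 3220, 3965 and 5887 CPM in controls. The uncontracted legs had 2751, 1933 and 1739 CPM with Myc and 3032, 2251 and 3113 CPM in controls. With the contracted libraries numbered 2 and 3 left out, which keeps 1 contracted library per genotype, the averaged changes were 0.32 and 0.27, with adjusted p of 0.325 and 0.726. The counts of these RNAs, too, are of polyadenylated 3' ends. Of 15 mitochondrially encoded mRNAs and ribosomal RNAs, 9 were tested, and these 2 were the only ones called by edgeR. Whether their change differed from that of the protein genes was not tested.

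Of 8 regulators of nuclear genes for mitochondria, 5 were tested and 2 rose with contraction. Ppargc1a, a coactivator of mitochondrial gene expression, had 26.9, 71.6 and 48.7 CPM in contracted Myc legs, against 8.82, 6.28 and 9.28 CPM in uncontracted Myc legs. In controls it had 24.5, 49.4 and 66.1 CPM after contraction, against 10.8, 9.42 and 15.9 CPM without it. Every contracted library lay above every uncontracted one, and the log2 change was 2.60 ± 0.39 with Myc (SE, adjusted p = 0.000142) and 1.94 ± 0.36 in controls (SE, adjusted p = 0.00206, edgeR). Leaving out the contracted libraries numbered 2 and 3, which keeps 1 contracted library per genotype, the change was 1.74 with Myc (adjusted p = 0.0229) and 1.0 in controls (adjusted p = 0.479). Pprc1, a related coactivator, had 11.2, 11.2 and 11.7 CPM in contracted control legs, against 3.82, 4.04 and 1.84 CPM in uncontracted control legs, and its log2 change of 1.80 ± 0.37 (SE) had an adjusted p of 0.00567 (edgeR). In reads this was 16, 17 and 18 after contraction, against 6, 6 and 3 without it. With DESeq2 the change was 1.81 with an adjusted p of 0.0699. From the single contracted control library numbered 1 it was 1.77 with an adjusted p of 0.286, so that the size stayed much the same. In Myc animals the Pprc1 change was 0.62 ± 0.32 (SE), with an adjusted p of 0.362. The change in Myc animals minus that in controls was -1.18 ± 0.50 (SE) and did not pass, with an adjusted p of 0.929 (edgeR).

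**Figure D4:**
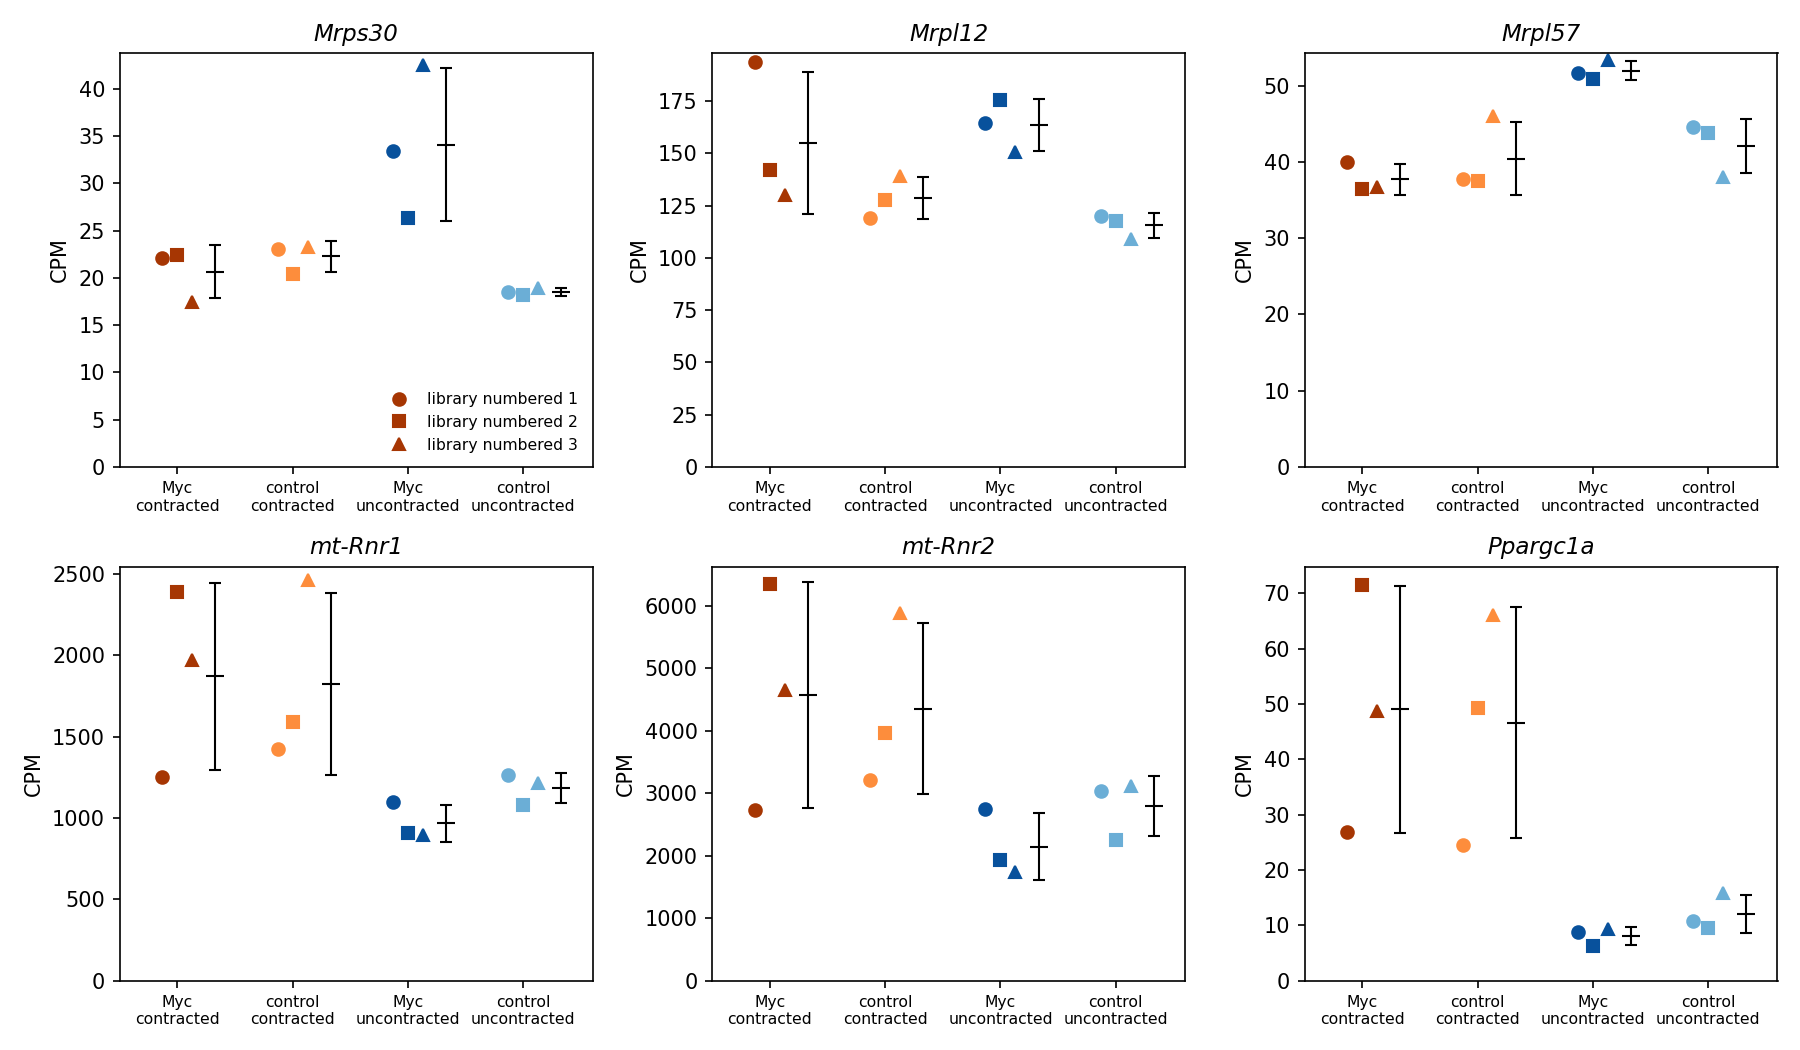
Level in CPM (vertical axes) of Mrps30, Mrpl12, Mrpl57, the mitochondrial ribosomal RNA genes mt-Rnr1 and mt-Rnr2, and Ppargc1a in each library by group; marker shapes give the library number, and the black bar with its whiskers gives the mean and SD of 3 libraries. Mrps30 is between 26.4 and 42.6 CPM in uncontracted Myc legs, above the other 9 libraries, while Ppargc1a is higher in every contracted library than in any uncontracted one.

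Beside the cytosolic ribosome and the respiratory chain, the family's median shift with Myc in uncontracted legs, 0.16, stood in between. The median log2 difference was 0.37 over 80 tested genes of cytosolic ribosomal proteins, with 78 higher, and 0.13 over 74 tested nuclear genes of oxidative phosphorylation subunits, with 64 higher. No gene of either list was called by edgeR in any comparison. With contraction in control animals the cytosolic list had a median of 0.21 with 72 of 80 genes higher, the oxidative phosphorylation list had 0.01, and the mitochondrial ribosomal proteins had 0.01. With contraction in Myc animals the medians were -0.20, -0.11 and -0.08 in the same order of lists. The cytosolic score ranged from -0.134 to 0.280 over the contracted Myc libraries, against 0.0990 to 0.236 over the uncontracted Myc libraries. In the contracted control libraries numbered 1, 2 and 3 it was -0.172, 0.0620 and 0.166. The uncontracted control libraries had -0.336, -0.161 and -0.133. Contracted control library 1 thus lay within the uncontracted control range, and only those numbered 2 and 3, whose labels are in doubt, lay above it. Differences between the lists were not tested.

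By subunit, the shift with Myc in uncontracted legs had a median of 0.20 over the 28 tested large-subunit genes with bacterial counterparts, 22 of them higher. It was 0.16 over the 20 tested large-subunit genes found only in mitochondria, 17 higher. For the small subunit it was 0.04 over the 15 tested genes with bacterial counterparts, 10 higher, and 0.19 over the 9 found only in mitochondria, 7 higher. With contraction in Myc animals the medians in that order were -0.10, -0.09, 0.04 and -0.11, with 6 of 28, 4 of 20, 9 of 15 and 3 of 9 genes higher. These classes were not tested against each other.

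Genes with special roles were examined one by one in uncontracted legs. Mrpl58, which can free stalled ribosomes by hydrolysing their peptidyl-tRNA, had 105, 120 and 85.1 CPM in uncontracted Myc legs, against 94.8, 107 and 91.2 CPM in uncontracted control legs, which overlapped. Mrpl45, near the exit of the nascent peptide and known in human structures to face the inner membrane, had 52.3, 54.0 and 38.7 CPM with Myc, against 42.0, 39.7 and 47.7 CPM in controls. Mrpl11, at the base of the stalk, had 57.3, 51.5 and 61.1 CPM with Myc, against 50.9, 61.2 and 47.7 CPM in controls. Mrps12, of the decoding centre, had 141, 149 and 149 CPM with Myc, against 165, 133 and 131 CPM in controls. In none of these 4 genes were the groups apart. Of the 3 genes of the Mrps18 kind, which encode alternative forms of 1 bacterial protein, Mrps18a averaged 52.2 CPM and Mrps18c 14.6 CPM over the 12 libraries, and Mrps18b was nearly absent at 0.283 CPM. Mrps18a had 59.2, 58.4 and 48.0 CPM in uncontracted Myc legs, against 57.3, 53.2 and 47.1 CPM in uncontracted control legs, and Mrps18c had 19.5, 17.0 and 10.8 CPM, against 7.0, 21.5 and 9.79 CPM.

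Nuclear genes for mitochondria are often described as having promoters with sites for factors of the ETS family (GABP among them), for NRF1 and for YY1, and Myc with its partner Max binds the E-box. RefSeq promoter windows (GRCm38.p6, 250 bases before to 50 after the annotated start) were given for 69 of the 78 genes, and each window was searched on both strands for 1 word per factor. The ETS word CCGGAAG was present in 37.7% of these genes, against 9.93% of all 27025 genes with a window. The NRF1 word GCGCATGC was present in 11.6%, against 3.05%, and the YY1 word AAGATGG in 18.8%, against 7.28%. The E-box CACGTG was present in 7.25%, or 5 genes (Mrpl2, Mrpl20, Mrpl36, Mrpl37 and Mrps18c), against 8.09% of all genes. These shares are descriptions of letters and do not show that a factor binds. The 5 genes with an E-box had a median log2 difference of 0.31 for Myc over control in uncontracted legs, and the 59 tested genes with a window and no E-box had 0.14. A like gap was seen for the NRF1 word, with 0.308 over 6 genes that have it and 0.143 over 58 without. For the ETS word the medians were 0.166 and 0.154, and for the YY1 word 0.143 and 0.170. None of these differences was tested.

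**Figure D5:**
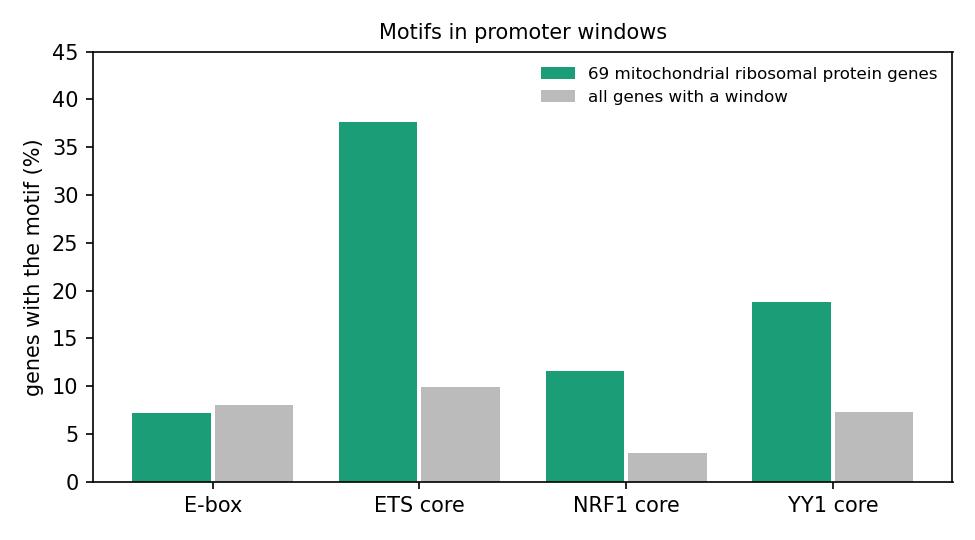
Percent of genes (vertical axis) with each of 4 words in their RefSeq promoter window, for the 69 mitochondrial ribosomal protein genes with a window (green, left bars) and for all 27025 genes with a window (grey, right bars). The ETS word stands at 37.7% against 9.93%, while the E-box is at 7.25% against 8.09%.

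Upstream sequences of 4 genes are given in full, on the strand of the gene and 5' to 3', as the 250 bases before the annotated start (RefSeq, GRCm38.p6), with matches to any of the 4 words in capitals. Mrps30 (chr13:118387253-118387502, minus strand) and Mrpl12 (chr11:120484387-120484636, plus strand) are shown because they had the lowest p between genotypes in uncontracted legs, and neither stretch holds any of the 4 words. Mrpl52 (chr14:54426659-54426908, plus strand) is shown because it was apart between genotypes in both legs, and holds a YY1 word and an ETS word on the other strand. Mrpl2 (chr17:46645971-46646220, plus strand), a protein of the peptidyl transferase centre, is shown as a gene with an E-box.
Mrps30: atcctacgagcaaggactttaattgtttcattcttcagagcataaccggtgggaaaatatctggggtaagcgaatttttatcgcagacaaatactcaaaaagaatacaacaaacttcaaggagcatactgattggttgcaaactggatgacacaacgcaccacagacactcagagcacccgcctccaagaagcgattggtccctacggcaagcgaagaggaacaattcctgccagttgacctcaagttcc
Mrpl12: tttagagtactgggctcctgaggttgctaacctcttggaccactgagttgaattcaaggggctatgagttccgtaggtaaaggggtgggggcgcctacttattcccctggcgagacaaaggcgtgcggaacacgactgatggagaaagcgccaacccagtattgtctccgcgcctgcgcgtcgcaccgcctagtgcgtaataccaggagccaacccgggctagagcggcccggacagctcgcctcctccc
Mrpl52: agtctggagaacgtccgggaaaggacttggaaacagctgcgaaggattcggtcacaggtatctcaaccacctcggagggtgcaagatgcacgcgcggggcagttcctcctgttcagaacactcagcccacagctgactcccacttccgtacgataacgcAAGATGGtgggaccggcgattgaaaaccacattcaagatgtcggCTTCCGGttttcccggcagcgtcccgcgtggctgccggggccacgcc
Mrpl2: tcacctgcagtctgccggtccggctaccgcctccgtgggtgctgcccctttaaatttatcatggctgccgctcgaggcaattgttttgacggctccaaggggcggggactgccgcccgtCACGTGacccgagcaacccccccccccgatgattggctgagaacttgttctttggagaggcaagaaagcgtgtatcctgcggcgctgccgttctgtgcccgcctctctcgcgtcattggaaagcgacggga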

How the data were processed

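The authors deposited raw counts of reads per gene for 12 libraries, made with a 3' mRNA kit per the labels' protocols. Per the submitters' processing notes, HTSeq 0.6.0, STAR 2.5.2a and FastQC 0.11.5 were used, with SAMtools and the mm10 build; annotation, filters and strand setting are not given in the sources used here. Gene positions came from the GENCODE annotation of GRCm38, which is the same assembly as mm10. Counts were analysed in R 4.3.3 with edgeR 4.0.16: genes kept by filterByExpr (minimum count 10), TMM scaling, quasi-likelihood F test on 4 group means, 2-sided, Benjamini-Hochberg adjustment over 6676 genes, calls at 0.05. The SE is the log2 change divided by the square root of F. CPM are TMM-scaled, and the score uses a prior count of 2. The procedure was tested on simulated data. Alternatives were DESeq2 1.42.0, other scalings and filters, the compared libraries alone, single libraries left out, the 4 contracted libraries numbered 2 and 3 left out, and the animal as a block. The legs share an animal, so the numbers pair them; deviations of the 2 legs of an animal correlated between -0.122 and 0.112. Named genes were those with the highest or lowest level or change and those with a stated role, with exceptions given in the text. Members and lists were chosen with earlier results of these data known.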

Additional observations from a re-analysis of the deposited data

Results flagged for a closer look

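Mrps30 was the only 1 of 72 tested genes whose legs differed one way in every Myc animal and the other way in every control animal, which is 1.39% of the family, against 2.52% of all tested genes. Right over left leg, the log2 differences were -0.570, -0.221 and -1.23 in the Myc animals numbered 1, 2 and 3, and 0.304, 0.157 and 0.280 in the control animals. The right legs numbered 2 and 3 in both genotypes are the libraries whose labels are in doubt, so those pairs may not join the legs of 1 animal. The difference between the contraction changes was itself tested and did not pass, at a log2 value of -0.975 ± 0.306 (SE) with an adjusted p of 0.855 (edgeR). With the contracted libraries numbered 2 and 3 left out it was -0.91.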

How the results depend on the processing

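In 5 of the 6 comparisons no gene of the family was called under any alternative run. The exception is contraction in Myc animals, where leaving out single libraries gave between 0 and 1 called genes, Mrpl19 without the contracted Myc library numbered 1 and Mrps30 without the uncontracted Myc library numbered 2. The family's median changed most when the contracted libraries numbered 2 and 3 were left out, to 0.0716 for contraction in Myc animals, 0.247 for Myc in contracted legs and 0.151 for the difference of the changes. The first 2 of these medians ran from -0.171 to -0.0431 and from -0.0586 to 0.0848 with single libraries left out, and the last from -0.185 to -0.0633. Without the 4 libraries single genes changed sign as well, namely Mrpl12 for contraction in Myc animals (0.249) and for the difference of the changes (0.217), Mrpl22 for the difference (-0.195) and Mrpl10 for averaged contraction (0.00918). With single libraries left out, contraction in Myc animals ran from -0.0548 to 1.56 for Mrps31 and from -0.270 to 0.0324 for Mrpl12, averaged contraction from -0.0578 to 0.0934 for Mrpl12, and Myc in uncontracted legs from -0.725 to 0.171 for Mrpl22. The cause was not tested. Of 858 alternative values over 57 named single-gene results, 831 kept their direction and their side of the threshold. No family gene was called in the main run, so staying on that side of the threshold says little about them. Of the other values, 10 changed sign, 4 passed where the main run did not, and 13 no longer passed. All 13 belong to mt-Rnr1, mt-Rnr2, Ppargc1a and Pprc1, which are outside the family. With the animal as a replicate block, 0 genes of the family were called and the medians were 0.00742 and -0.0896 for contraction in control and Myc animals, -0.0604 averaged and -0.0930 for the difference, and the pairing changed no call. Over all tested genes the counts of calls ran from 57 to 507 for contraction in Myc animals, beside 260, and from 64 to 307 in controls, beside 187. Depth limits the lowest genes, and Mrps31 rests on 2 to 13 reads per library.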
